A study of Mus musculus with 40 samples.

Results

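The nuclear-encoded respiratory chain genes of mouse aorta and kidney were taken by name: protein-coding rows for subunits and assembly factors of complex I (Nduf), succinate dehydrogenase subunits (Sdha to Sdhd), subunits of complex III (Uqcr), cytochrome c oxidase subunits (Cox4 to Cox8) and ATP synthase subunits (Atp5), without the muscle and brown fat isoforms Cox7a1 and Cox8b. Of 93 genes with such a name, 80 reached a mean of 1 CPM (count scaled to library size) in aorta or kidney. Each tissue had 79 members, of 55335 genes in the aorta table and 55382 in the kidney table, and 78 were shared. Aorta alone held Cox4i2 and kidney alone held Cox6a2. By complex the 80 members were 35 subunits of complex I, 7 complex I assembly factors, 3 genes of complex II, 7 of complex III, 12 of complex IV and 16 of complex V. The other 13 names stayed below the minimum in both tissues, and 12 of them were listed at 0 in every library. Of the 13, 10 lie in parts of the genome where no gene of these tables had a count: Cox4i1, Cox5a, Cox7a2, Cox7b, Atp5l, Ndufaf3, Sdhd, Uqcrc1, Ndufa1 and Ndufb11. Their values were not analysed here, so complexes III and IV are described without some of their main subunits.

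The 40 RNA-seq libraries were 20 of whole aorta and 20 of whole kidney, in 4 groups of 5 mice per tissue. The mice lacked the epidermal growth factor receptor (EGFR) in Tie2-expressing cells (EC-EGFR-KO, here KO) or were EC-EGFR-WT controls (here WT), and they received a standard fat diet (SFD, SD in the labels) or a high fat diet (HFD) for 18 weeks from 6 weeks of age. In KO mice Cre under the Tek (Tie2) promoter removes a floxed part of Egfr in endothelial cells, and Tie2-Cre is also active in blood cells. The WT controls carried the Cre transgene without floxed Egfr. All other cells of KO tissues keep the receptor, so Egfr counts over the whole gene do not check the deletion. The log2 fold change of Egfr in KO against WT averaged over diets was 0.14 ± 0.10 (SE) in aorta and -0.01 in kidney, with adjusted p = 0.729 and 0.99 (edgeR). The sources used here do not state the sex of the mice or which aorta and kidney came from the same animal.

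Mitochondrial respiration passes electrons from NADH through complex I, or from succinate through complex II, to ubiquinone, then through complex III and cytochrome c to complex IV, which reduces oxygen. Complexes I, III and IV pump protons, and complex V uses the gradient to make ATP. Most subunits are encoded in the nucleus and imported, while a small core is encoded by mitochondrial DNA, so both genomes must be expressed together. The proximal tubule of the kidney is known for its dense mitochondria and its reliance on oxidation of fatty acids, whereas vascular smooth muscle is known for a lower oxidative capacity and much glycolysis.

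Libraries held 17520161 to 36452741 counts in aorta and 19643033 to 48833447 in kidney. The members took 0.623% to 1.10% of the counts of an aorta library and 2.27% to 3.09% of a kidney library. The tissue labels fitted the marker genes, with Acta2 of smooth muscle at a mean of 21800 FPM (CPM with TMM scaling factors) in aorta and Kap of the proximal tubule at 22000 FPM in kidney. Within each tissue a pair of libraries with different labels was nearly the same. Aorta libraries R-1 (WT SFD) and R-12 (KO SFD) had a median chi-square of 0.0263 per gene against 1.57 in the next closest pair, and kidney libraries a12 (WT HFD) and a1 (KO HFD) had 0.0253 against 1.59, where sampling noise alone gives 0.455. Both libraries of each pair were also the deepest of their tissue, with 36419598 (R-1) and 36452741 (R-12) counts in aorta. In kidney they had 48788716 (a1) and 48833447 (a12). The next deepest libraries had 23683293 (R-11) and 31369285 (a16). Whether either label of a pair is right cannot be told here, so results are also given without both libraries of the pair.

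The members had higher RNA levels in kidney than in aorta across all 5 complexes. In a fit of all 40 libraries, 68 of 78 members were higher in kidney by over 1.5-fold with adjusted p under 0.05 and a mean over 5 FPM (edgeR quasi-likelihood test, Benjamini-Hochberg), and 1 was lower. Of all 17514 genes tested, 22.7% passed this rule as higher and 21.5% as lower in kidney. The members' median log2 fold change was 1.55, beside 0.02 over all genes, and 76 of 78 values were above 0. In 59 of the 78, no kidney library overlapped any aorta library. The share of all genes without such overlap was not computed, and 86.9% of all genes had an unadjusted p under 0.05 (edgeR). Scaling by total counts alone moved the median of all genes to -0.18 and left 60 members higher and 2 lower. In whole tissue, more cells rich in mitochondria and more RNA per cell cannot be told apart. Each tissue also has its own count table, so any difference in sequencing or counting between the 2 cannot be told apart from tissue. The summed FPM of proximal tubule markers was 25500 to 59200 in kidney and 255 to 380 in aorta, and its part in the difference was not tested.

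**Figure D1:**
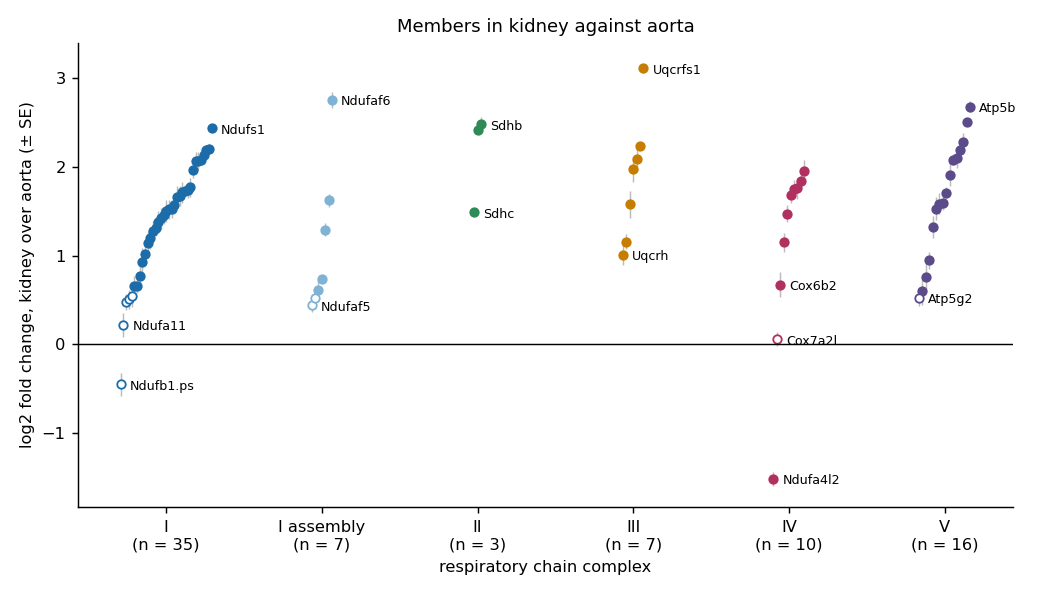
Log2 fold change of kidney over aorta (y axis) for each of the 78 members found in both tissues, ordered within its complex (x axis), with vertical bars for the SE, filled points for members that passed the adjusted p, 1.5-fold and 5 FPM rule and open points for the rest. Of the 78 points 76 lie above 0, with Uqcrfs1 highest at 3.11 and Ndufa4l2 lowest at -1.52.

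Complex II, which links the citric acid cycle to ubiquinone, and complex III had every measured member higher in kidney, 3 of 3 and 7 of 7, with median log2 fold changes of 2.42 and 1.97. Sdha, the flavoprotein of succinate dehydrogenase, had a mean of 215 FPM in aorta and 1152 FPM in kidney, a 5.35-fold difference. Sdhb, its iron-sulfur subunit, was 5.59-fold higher (89.5 and 500 FPM), and the membrane anchor Sdhc was 2.81-fold higher. The largest member fold change was that of Uqcrfs1, the Rieske iron-sulfur protein of complex III, at 62.5 ± 5.78 FPM (SD, n = 20, range 49.2 to 74.7) in aorta and 540 ± 53.7 FPM (n = 20, range 446 to 639) in kidney. This was 8.64-fold, with a log2 difference of 3.11 ± 0.05 (SE). The core protein Uqcrc2 was 4.72-fold higher, and the hinge protein Uqcrh showed the smallest complex III difference, a log2 value of 1.01. Per kilobase of transcript, Uqcrfs1 had the lowest level of complex III in aorta, 49.2 FPM per kb, while Uqcrh had the highest, 357 FPM per kb. Complex II ran from Sdhc to Sdhb in both tissues, 48.0 to 84.1 FPM per kb in aorta and 117 to 408 FPM per kb in kidney. In kidney the range of complex III ran from Uqcrc2 (229 FPM per kb) to Uqcrq (876 FPM per kb). Of the Uqcrc2 transcript 26.6% is overlapped by Pdzd9.

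In complex I, the NADH dehydrogenase, 30 of 35 subunits were higher in kidney, with a median log2 difference of 1.5. The large catalytic subunits led: Ndufs1, which carries iron-sulfur clusters, was 5.41-fold higher, and Ndufv1, the flavin-binding NADH site, 4.39-fold. Ndufv2 was 2.48-fold higher, and the core subunits Ndufs3, Ndufs7 and Ndufs8 were 3.34-, 2.83- and 2.87-fold higher. The accessory subunit Ndufa11 had a log2 difference of 0.22 with adjusted p = 0.139. Ndufb1.ps was lower in kidney by a log2 value of -0.45 ± 0.13 with adjusted p = 0.00151, a difference under 1.5-fold, and 17.1% of its transcript is overlapped by Cpsf2. Of the 7 assembly factors, which build complex I and do not stay in it, 5 were higher, with a median of 0.74. Among them Ndufaf6 had the largest fold change, 6.75-fold, at 4.64 FPM in aorta and 31.3 FPM in kidney. Per kilobase, complex I subunits ran from Ndufb2 to Ndufa2 in aorta (27.8 to 204 FPM per kb) and from Ndufb2 to Ndufa6 in kidney (33.6 to 391 FPM per kb). The low Ndufb2 values are uncertain, since 50.3% of its transcript is overlapped by Gm16272 and Gm42420. Assembly factors ran from Ndufaf6 to Ndufaf8 in aorta (4.6 to 34.5 FPM per kb) and from Ndufaf5 to Ndufaf8 in kidney (12.7 to 45.7 FPM per kb).

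Of the 16 ATP synthase genes, 15 were higher in kidney, with a median log2 difference of 1.65. The catalytic beta subunit Atp5b had a mean of 629 FPM in aorta and 4024 FPM in kidney, 6.40-fold, and the alpha subunit Atp5a1 was 5.67-fold higher. The gamma subunit of the central stalk, Atp5c1, was 3.27-fold higher. Of the 3 genes for the same c-ring protein, Atp5g3 was 4.87-fold and Atp5g1 4.57-fold higher, while Atp5g2 had a ratio of 1.44. The Atp5g2 value is uncertain, since all of its 100-base stretches also occur in Gm10175. Per kilobase, Atp5b was the highest complex V member in kidney at 1958 FPM per kb and Atp5e, the epsilon subunit, in aorta at 387 FPM per kb. Atp5o of the peripheral stalk was lowest in both (162 and 49.4 FPM per kb). Its rank is uncertain, since 48.6% of its transcript is overlapped by other gene entries.

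Complex IV held the only member called lower in kidney. Of its 10 genes in both tissues, 8 were higher in kidney, with 3.87-fold for Cox5b, 3.60-fold for Cox6a1, 3.38-fold for Cox6b1, 3.36-fold for Ndufa4 and 3.21-fold for Cox8a. Ndufa4 is a complex IV subunit despite its name, and its paralogue Ndufa4l2, a hypoxia-inducible gene, was lower in kidney: 14.5 ± 2.78 FPM in aorta and 5.06 ± 0.834 FPM in kidney (SD, n = 20 each), a log2 difference of -1.52 ± 0.08 with adjusted p = 1.49e-19 and no overlap between tissues. Cox4i2, the subunit IV isoform known from lung and vessels, had 3.18 ± 0.805 FPM in aorta and 0.661 ± 0.18 FPM in kidney, again with no overlap, at levels under 5 FPM. Its counterpart Cox4i1 was among the genes not analysed. The muscle-type isoform Cox6a2 had 0 to 0.199 FPM in the aorta libraries, 30 counts in all, and a mean of 3.47 FPM in kidney, from 1902 counts. Cox6b2, an isoform known from testis, was 1.59-fold higher in kidney, and in the WT SFD groups alone its log2 difference was 0.24 with adjusted p = 0.322. Cox7a2l, which joins complexes III and IV into supercomplexes, had a log2 difference of 0.06 ± 0.08 with adjusted p = 0.501, and it turned to -0.15 with total-count scaling and to -0.08 in the WT SFD groups alone. It shares 11.7% of its 100-base stretches with Gm6969. Per kilobase, complex IV ran from Cox4i2 (4.70 FPM per kb) to Cox6c (621 FPM per kb) in aorta and from Cox6a2 (4.75 FPM per kb) to Cox6a1 (1479 FPM per kb) in kidney.

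Factors that control mitochondrial genes, and other mitochondrial genes, were listed alongside. Of 18 regulators tested, 9 were over 1.5-fold higher in kidney and 1 lower by the rule used for the members, with a median of 0.66. The coactivator Ppargc1a (PGC-1alpha) had a log2 difference of 4.16 ± 0.10 and the nuclear receptor Esrra 2.93 ± 0.05, and Tfam, which packs and transcribes mitochondrial DNA, 1.25. The nuclear respiratory factors Nrf1 and Gabpa had log2 differences of -0.43 and -0.09, and Yy1 0.02. All 13 citric acid cycle genes were higher (median 1.85), as were 14 of 17 carriers and cytochrome genes, with 2.84 for Cycs, cytochrome c, and 2.62 for Cyc1. Among other assembly factors 28 of 39 were higher, and among mitochondrial ribosomal proteins 52 of 74 were higher and 3 lower, with medians of 1.03 and 0.86.

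Promoter windows from RefSeq (GRCm38.p6; 250 bases before and 50 after the gene start, as given in the annotation) were found for 64 of the 80 members. The following windows belong to members described in the tissue comparison (Uqcrfs1, Sdha), in the diet comparisons (Cox6b2, Sdha) and among the lowest p of the genotype comparisons (Ndufb8 and Ndufc2, neither of them called). Cox6a2 has no entry. Capitals mark matches, on either strand, to letters of 7 motifs: NRF-1 (GCGCANGC), ERR (TCAAGGTCA), ETS (CCGGAAGT), YY1 (AAGATGGC), CRE (TGACGTCA), the TATA box (TATAAA) and HIF (ACGTG). No motif contains another.
Uqcrfs1, chr13:30545267-30545566, minus strand: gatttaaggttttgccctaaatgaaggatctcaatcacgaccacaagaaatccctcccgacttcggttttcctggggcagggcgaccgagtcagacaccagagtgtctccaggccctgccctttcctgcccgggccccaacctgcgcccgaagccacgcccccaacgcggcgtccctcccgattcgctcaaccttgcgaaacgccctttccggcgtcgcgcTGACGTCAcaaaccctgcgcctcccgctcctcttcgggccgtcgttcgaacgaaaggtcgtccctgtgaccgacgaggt
Sdha, chr13:74350191-74350490, minus strand: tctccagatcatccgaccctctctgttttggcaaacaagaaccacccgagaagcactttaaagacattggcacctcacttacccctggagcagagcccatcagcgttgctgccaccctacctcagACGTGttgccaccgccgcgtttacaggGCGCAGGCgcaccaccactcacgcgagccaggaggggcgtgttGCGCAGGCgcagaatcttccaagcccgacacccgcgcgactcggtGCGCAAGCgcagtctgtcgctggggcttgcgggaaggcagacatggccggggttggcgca
Ndufb8, chr19:44555393-44555692, minus strand: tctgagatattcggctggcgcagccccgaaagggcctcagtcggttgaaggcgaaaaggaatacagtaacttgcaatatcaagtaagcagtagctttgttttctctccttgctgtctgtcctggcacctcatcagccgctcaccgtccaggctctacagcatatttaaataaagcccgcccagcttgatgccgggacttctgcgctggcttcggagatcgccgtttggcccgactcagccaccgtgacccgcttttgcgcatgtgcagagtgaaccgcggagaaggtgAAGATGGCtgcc
Ndufc2, chr7:97399753-97400052, plus strand: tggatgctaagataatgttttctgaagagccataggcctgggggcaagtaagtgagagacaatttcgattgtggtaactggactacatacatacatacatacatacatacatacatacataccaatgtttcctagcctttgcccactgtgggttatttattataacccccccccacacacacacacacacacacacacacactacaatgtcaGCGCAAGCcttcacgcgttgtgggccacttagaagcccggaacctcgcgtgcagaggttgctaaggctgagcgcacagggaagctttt
Cox6b2, chr7:4753045-4753344, minus strand: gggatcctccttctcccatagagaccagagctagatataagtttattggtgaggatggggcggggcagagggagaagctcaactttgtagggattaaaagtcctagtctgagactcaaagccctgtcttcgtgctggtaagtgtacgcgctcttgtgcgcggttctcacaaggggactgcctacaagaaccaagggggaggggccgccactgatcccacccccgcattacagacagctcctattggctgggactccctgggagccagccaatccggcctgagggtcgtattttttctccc
The Uqcrfs1 window held 1 CRE match, the Sdha window 3 NRF-1 matches and 1 HIF match, the Ndufb8 window 1 YY1 match and the Ndufc2 window 1 NRF-1 match. The Cox6b2 window held no match to these letters. Of the 64 members with a window, 34.4% held the NRF-1 letters in any of their windows. The share was 11.2% of all 27025 genes with a window and 19.7% of 10365 other protein-coding genes tested here. A gene with more than 1 window, as 5 members had, has more chances to match. The YY1 letters stood in 17.2% of these members, 3.19% of all genes with a window and 4.52% of the other tested genes. The shares for CRE were 6.25%, 2.03% and 3.31%, and those for ETS were 7.81%, 4.31% and 8.03%. The TATA box was found in 7.81%, 15.7% and 9.58%, the HIF letters in 18.8%, 21.8% and 27.6%, and the ERR letters in 1.56%, 0.466% and 0.357%. These shares are descriptions of letters in a window and name no bound factor.

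In kidney, Cox6a2 and, by a smaller amount, Cox6b2 rose under the high fat diet, and no other member passed edgeR's test. Cox6a2 is the isoform of cytochrome c oxidase subunit VIa known from heart and skeletal muscle, and Cox6a1 is the common form. In KO kidneys on SFD, Cox6a2 had 1.47, 1.73, 1.07, 1.22 and 1.30 FPM, and on HFD it had 8.32, 4.81, 3.24, 2.45 and 9.78 FPM. In WT kidneys it had 1.56, 0.386, 3.19, 1.56 and 1.24 FPM on SFD and 3.03, 8.51, 2.92, 2.48 and 4.28 FPM on HFD. Every KO kidney on HFD was above every KO kidney on SFD, while the WT groups overlapped through 1 SFD library, a18. The log2 fold change of Cox6a2 was 2.07 ± 0.46 (SE) in KO, with adjusted p = 0.00785, and 1.43 ± 0.45 in WT, with adjusted p = 0.0633 (edgeR). Averaged over genotypes it was 1.75 ± 0.32 with adjusted p = 6.67e-04. The difference between genotypes was 0.65 ± 0.63 with an unadjusted p of 0.321 and adjusted p = 1. With a1 and a12, the near-identical pair, left out, the values were 1.89 (adjusted p = 0.0101) in KO, 1.00 (0.17) in WT and 1.45 (0.00226) on average. The levels are those of a gene with few reads, and the common form Cox6a1 was not called in any diet comparison.

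Among markers of other cell types, Pvalb and Slc12a3 were also higher on HFD. Pvalb, a gene of skeletal muscle and of the distal convoluted tubule, had 22.3 ± 12.5 FPM on SFD and 53.5 ± 9.69 FPM on HFD in WT kidneys, and 22.0 ± 5.88 and 68.3 ± 9.10 FPM in KO kidneys (SD, n = 5 each). Its log2 fold change averaged over genotypes was 1.45 with adjusted p = 2.23e-05, and that of Slc12a3, the thiazide-sensitive transporter of the distal tubule, was 0.43 with adjusted p = 0.033. In the order given for Cox6a2, Slc12a3 had 840, 1245, 1620, 1170 and 1062 FPM in KO HFD kidneys. In WT HFD kidneys it had 1785, 838, 1558, 1692 and 1061 FPM. The lowest values, 840 and 838 FPM, are those of the near-identical libraries a1 and a12. A relation of Slc12a3 to Cox6a2 between libraries was not tested. The 8 listed distal tubule and collecting duct markers, of which 7 were detected and Hsd11b2 was at 0, summed to 1320 to 1670 FPM on SFD and 1320 to 2160 FPM on HFD in WT, and to 1230 to 1500 and 1320 to 2030 FPM in KO kidneys. Slc12a3 had the highest mean of that list, 1120 FPM, so it weighs most in these sums. Single values of the other distal markers are not given here, so the sums do not show a rise of the whole list. Of 12 skeletal muscle markers 9 were detected, only 2 had a mean over 1 FPM, and Acta1, Myh2 and Tnnc2 were at 0. The summed level of that list was 14.1 to 47.5 FPM on SFD and 46.5 to 73.5 FPM on HFD in WT, and 18.8 to 32.5 and 61.5 to 85.3 FPM in KO, mostly from Pvalb. Brown fat markers summed to 0.962 to 80.7 FPM on SFD and 1.26 to 3.48 FPM on HFD in WT, and to 1.11 to 6.43 and 2.53 to 23.9 FPM in KO kidneys. With the distal marker score as covariate, an alternative added after seeing the data, the log2 fold change of Cox6a2 was 1.99 with adjusted p = 0.0136 in KO, 1.26 with 0.181 in WT and 1.62 with 0.0039 on average. The part of Pvalb was not tested.

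Cox6b2, an isoform of subunit VIb, had 7.55, 5.54, 8.74, 5.55 and 5.17 FPM in WT SFD kidneys and 7.92, 10.1, 7.89, 6.32 and 7.95 FPM in WT HFD kidneys. KO kidneys had 6.03, 5.78, 5.54, 6.89 and 6.01 FPM on SFD and 10.2, 8.27, 6.74, 9.07 and 7.69 FPM on HFD. HFD kidneys tended to the higher values, but the ranges met in both genotypes. Averaged over genotypes the log2 fold change was 0.39 ± 0.11 with adjusted p = 0.0179, under 1.5-fold, and without the near-identical libraries it was 0.30 with adjusted p = 0.0698.

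By counts, 0 of 79 members passed in WT kidneys under HFD, 1 in KO kidneys (Cox6a2) and 2 on the average over genotypes (Cox6a2 and Cox6b2). Over all 15943 genes tested, 6.71%, 6.34% and 16.4% passed. With a 1.5-fold and 5 FPM limit added, 0, 1 and 1 members passed, beside 2.18%, 2.16% and 2.92% of all genes. At an unadjusted p under 0.05 there were 3 members in WT, 8 in KO and 9 on average, beside 19.4%, 19.5% and 29.9% of all genes. The share of members called in this fit was thus below that of all genes in each of the 3 comparisons. With the median level of other short genes as a covariate, this order did not hold in KO or on average (counts in the last section). DESeq2's Wald test called 2 members in WT (Cox6a2 and Ndufaf4) and 3 in KO and on average (Cox6a2, Cox6b2 and Sdha). Of all genes it called 4.56%, 4.53% and 10.0%. The counts also changed with single libraries. Without the WT HFD library a12, Ndufaf4 and Ndufv1 were called lower in WT, as they were with both a1 and a12 left out, and 4 members passed on average. Without the KO HFD library a3, 3 members passed in KO (Cox6a2, Cox6b2 and Ndufaf5) and 5 on average. Without the WT SFD library a18, the counts were 1 in WT, 2 in KO and 4 on average, and without a17 1 in WT.

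Ndufaf4, a complex I assembly factor, had 72.4, 54.9, 71.3, 63.0 and 72.0 FPM in WT SFD and 52.0, 63.3, 51.2, 50.8 and 60.3 FPM in WT HFD kidneys. Its log2 fold change was -0.26 ± 0.08 with adjusted p = 0.056, and -0.32 with adjusted p = 0.0278 without a1 and a12. Ndufv1 had 450, 416, 596, 401 and 403 FPM in WT SFD and 346, 478, 359, 313 and 364 FPM in WT HFD kidneys, so that 1 library stood high in each group. Its log2 fold change was -0.29 ± 0.12 with adjusted p = 0.184, and -0.39 with adjusted p = 0.0334 without a1 and a12. Sdha had 990 to 1028 FPM in KO SFD kidneys and 1077 to 1149 FPM in KO HFD kidneys (means 1007 ± 15.2 and 1121 ± 30.2), without overlap. The difference in Sdha was a log2 value of 0.16 ± 0.05 with adjusted p = 0.0683 in edgeR, and DESeq2's Wald test called it with adjusted p = 0.00027. Sdha, Cox6a2 and the assembly factor Ndufaf7 were the 3 members whose KO diet groups did not overlap. The share of all genes without such overlap was not computed. Cox7a2l had a log2 fold change of 0.23 with adjusted p = 0.0684 on average, and Ndufaf5 one of 0.36 with adjusted p = 0.0802 in KO.

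**Figure D2:**
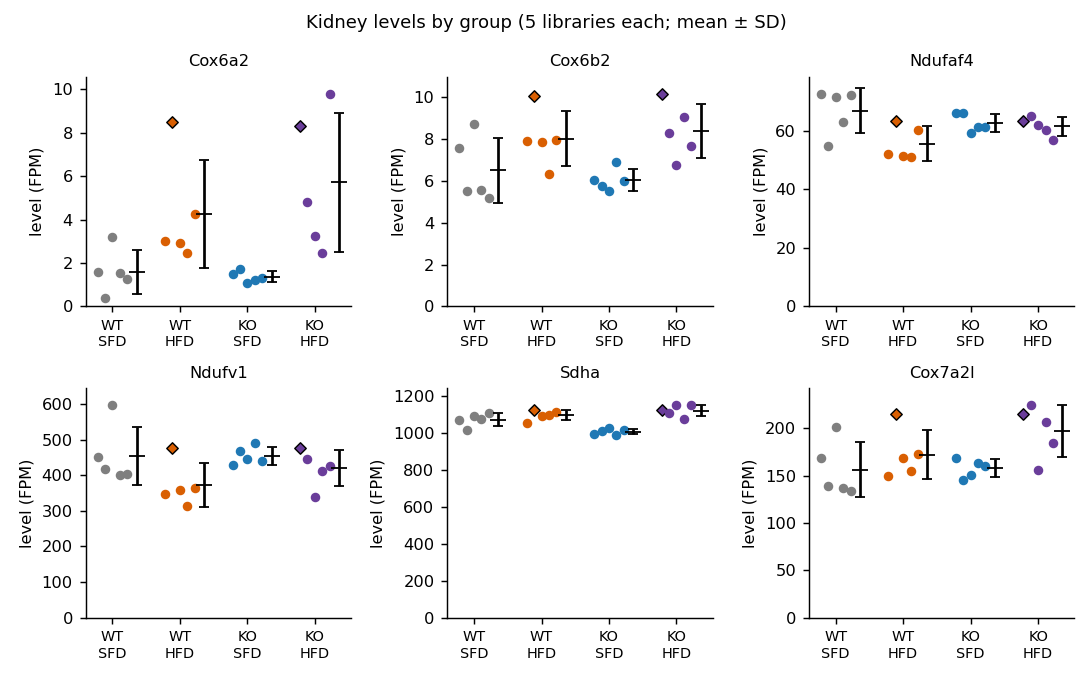
Kidney levels in FPM (y axis, linear from 0) of Cox6a2, Cox6b2, Ndufaf4, Ndufv1, Sdha and Cox7a2l in the 4 groups (x axis), with a point for each of the 5 libraries, diamonds for the near-identical libraries a12 and a1, and the mean ± SD beside them. Cox6a2 had group means of 1.59, 4.24, 1.36 and 5.72 FPM in the order plotted, with the diamonds among its highest values.

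As a group, the kidney members had medians of opposite sign under HFD in the WT and KO mice, and the sign in WT depended on 1 library. In WT the median log2 fold change was -0.10, with 11 of 79 members above 0, and in KO it was 0.14, with 75 above 0. The median of all genes lay within 0.01 of 0 in each. In WT the complex medians were -0.11 for complex I, with 0 of 35 subunits above 0, 0.02 for II, -0.13 for III, -0.05 for IV and -0.09 for V. In KO they were 0.15, with 33 of 35 above 0, 0.16, 0.14, 0.24 and 0.14. Complex II had medians above 0 in both genotypes. Without library a18, the WT median turned to 0.06 with 57 of 79 members above 0, and without a12 it was -0.21 with 7 above 0, as it was with both a1 and a12 left out. With 1 library left out, the KO median ran from 0.10 (without a1) to 0.23 (without a3). Proximal tubule markers summed to 35000 to 59200 FPM on SFD and 25500 to 34500 FPM on HFD in WT, and to 39900 to 44100 and 29400 to 36900 FPM in KO kidneys. Of the 12 listed markers Kap had the highest mean, 22000 FPM, so it weighs most in these sums. With the proximal tubule score as covariate the medians were -0.09 in WT and 0.14 in KO.

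The genotype comparisons asked whether loss of EGFR in Tie2-expressing cells changes these genes under either diet. In kidney, 0 of 79 members passed for KO against WT under SFD, under HFD, averaged over diets or for the interaction of diet and genotype, and 0% of all genes passed in each (edgeR). DESeq2's Wald test called 0 members in these 4 comparisons too. At an unadjusted p under 0.05 there were 0, 6, 0 and 1 members, beside 2.67%, 3.42%, 4.82% and 1.79% of all genes. Under SFD the median log2 fold change was -0.01, with 32 of 79 above 0, and it turned to 0.14 without a18 and above 0 without a6. Under HFD it was 0.25, with 79 of 79 above 0, beside a median of -0.01 and 48.4% above 0 over all genes. The 79 interaction values, with a median of 0.25, were above 0 as well, beside 50.5% of all genes. The members moved together between libraries (below), so values of the same sign in 79 members are not 79 separate results. Leaving out 1 library moved the HFD median between 0.20 (without a1) and 0.38 (without a12) and the interaction median between 0.11 (without a18) and 0.36 (without a12), and with both a1 and a12 left out these were 0.33 and 0.34. These comparisons share the HFD libraries. The lowest p under HFD belonged to Ndufc2, Ndufb8 and Ndufaf5, with log2 fold changes of 0.26, 0.24 and 0.28 and adjusted p = 0.814 for each. Averaged over diets they were Atp5h of the ATP synthase stalk (0.17), Ndufb6 (0.15) and Ndufb8 (0.14), with adjusted p = 0.802, and under SFD Ndufs1, Sdha and Ndufaf4, with -0.09 for each and adjusted p = 1. For the interaction they were Ndufc2 (0.29), Ndufaf4 (0.23) and Ndufab1, the acyl carrier protein of complex I (0.23), with adjusted p = 1. Ndufc2, a membrane-arm subunit of complex I, had 119, 163, 119, 119 and 130 FPM in WT HFD and 165, 158, 132, 161 and 163 FPM in KO HFD kidneys. Its groups overlapped, and the high WT value was library a12, the near twin of KO library a1.

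In aorta, no member passed in any of the 7 comparisons. HFD against SFD gave 0 of 79 members in WT, beside 0.0132% of 15122 genes, 0 in KO, beside 0% of all genes, and 0 on average, beside 0.0529%. KO against WT gave 0 under SFD and 0 under HFD, each beside 0% of all genes, and 0 averaged over diets, beside 0.0198%. Without R-1 and R-12 the members called stayed at 0, while 0.138% of all genes passed for KO against WT under HFD and 0.859% averaged over diets. The interaction gave 0, beside 0%. DESeq2's Wald test called 0 members in all 7. At an unadjusted p under 0.05 (edgeR) the diet comparisons had 0, 1 and 1 members and the genotype comparisons 0, 10 and 6, with 0 for the interaction. The shares over all genes were 2.61%, 4.56% and 6.70% for diet, 2.28%, 5.85% and 8.78% for genotype and 0.84% for the interaction. The median log2 fold change under HFD was 0.05 in WT and -0.16 in KO. For KO against WT it was -0.09 under SFD and -0.32 under HFD, where 2 of 79 members were above 0, beside 51.7% of all genes. With R-1 and R-12 left out, the diet medians were 0.10 and -0.08 and the genotype medians -0.12 and -0.32. With 1 library left out, the diet median in WT ran from -0.05 (without R-7) to 0.17 (without R-10) and was below 0 without R-4, R-5, R-7 or R-8. In KO it ran from -0.25 (without R-14) to 0.01 (without R-11, the only library that turned it). The genotype median ran from -0.26 (without R-11) to -0.01 (without R-2) under SFD and from -0.44 (without R-10) to -0.24 (without R-7) under HFD. No member had groups without overlap in any of these comparisons.

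The aorta members with the smallest p were higher in WT than in KO on HFD, with wide spread. Ndufc2 had 63.9, 74.7, 68.6, 54.5 and 45.0 FPM in WT HFD and 48.8, 41.5, 45.3, 47.9 and 35.8 FPM in KO HFD aortas. On SFD it had 61.2, 75.0, 65.3, 52.0 and 47.9 FPM in WT and 61.1, 60.9, 37.8, 44.5 and 40.9 FPM in KO. The groups overlapped under both diets. Its log2 fold change was -0.48 ± 0.16 under HFD with adjusted p = 0.601, and -0.39 ± 0.12 averaged over diets with adjusted p = 0.399. Atp5k, a small membrane subunit of ATP synthase, had 109, 133, 121, 65.4 and 37.8 FPM in WT HFD and 70.9, 46.7, 42.6, 54.7 and 28.1 FPM in KO HFD aortas, a log2 value of -0.94 ± 0.37 with adjusted p = 0.702. By complex, the KO against WT medians under HFD were -0.37 for I, -0.16 for II, -0.39 for III, -0.37 for IV and -0.24 for V, and -0.17 for the assembly factors. Endothelial markers summed to 389 to 1640 FPM in WT HFD and 624 to 1730 in KO HFD, smooth muscle markers to 30600 to 43800 and 28300 to 38700, and brown fat markers to 56.0 to 153 and 56.6 to 127. The part of the endothelial and smooth muscle markers was not tested. Of the brown fat genes, Ucp1 had 1.23 to 74.5 FPM in WT HFD and 2.17 to 6.39 FPM in KO HFD, with a log2 fold change of -2.21 ± 0.99 and adjusted p = 0.821. The isoforms left out of the members had -1.85 (Cox8b) and -1.47 (Cox7a1), with adjusted p = 0.751 and 0.737. With the brown fat score as covariate, the members' KO against WT median was 0.01 under SFD, with 41 of 79 above 0, and -0.14 under HFD, with 9 above 0. With the skeletal muscle score it was 0.01 and -0.15, and the diet medians became 0.36 in WT and 0.20 in KO, with 77 of 79 above 0 in each. That list is near the floor in aorta. It summed to 4.49 to 13.2 FPM, only 3 of its 12 genes had a mean over 1 FPM, and Acta1 was at 0. Of the 8 brown fat markers, Dio2 had the highest mean, 63.4 FPM, and Zic1 was at 0.

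The remaining aorta values of lowest p also missed the threshold. Under HFD in WT these were Uqcrc2 with a log2 fold change of 0.11 ± 0.08, the complex I subunit Ndufa9 with 0.16 ± 0.13 and Cox6b2 with -0.33 ± 0.36, all with adjusted p = 1. Under HFD in KO they were Cox6b2 with -0.76, Atp5k with -0.58 and Ndufa3, a complex I subunit, with -0.44, all with adjusted p = 0.987. For KO against WT averaged over diets, Ndufb3, another complex I subunit, had -0.32 ± 0.12 with adjusted p = 0.474, and Atp5k had -0.62 ± 0.26 with adjusted p = 0.51. With the skeletal muscle score as covariate, Cox6b2 in WT and Atp5k and Ndufa3 in KO turned above 0, while Cox6b2 in KO was -0.11.

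**Figure D3:**
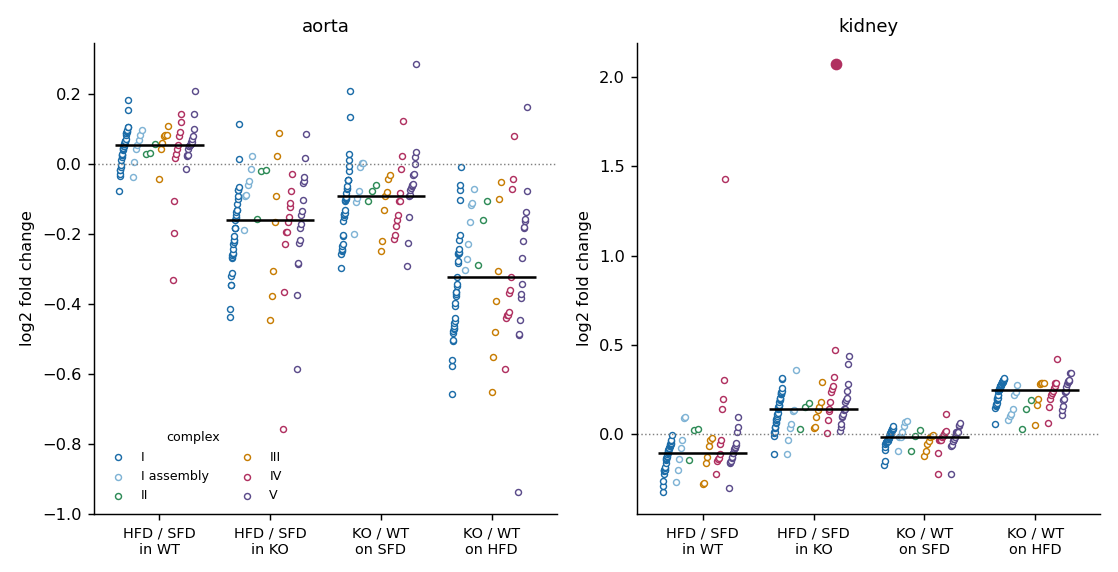
Log2 fold changes (y axis, a separate scale per tissue) of the 79 members of each tissue in the diet and genotype comparisons (x axis), a point per member coloured by complex, filled where adjusted p was under 0.05, with a horizontal line at the members' median. Cox6a2 in KO kidney under HFD, at 2.07, is the only filled point, and the medians run from -0.32 to 0.05 in aorta and from -0.10 to 0.25 in kidney.

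The members moved up and down together from library to library, and short transcripts moved farthest. In aorta 9 libraries had short members (under 1000 bp, 50 genes) above their mean over 20 libraries, by 0.13 to 0.63 on the log2 scale, and the 29 longer members were above theirs by 0.07 to 0.33. Of these 9, WT gave 3 on SFD and 3 on HFD, and KO gave 2 and 1. In kidney 9 libraries were above, with 2 on SFD and 1 on HFD from WT and 2 and 4 from KO. The groups' mean log2 member level was 6.37 ± 0.34 (SD, n = 5) on SFD and 6.41 ± 0.37 on HFD in WT aortas, and 6.26 ± 0.40 and 6.13 ± 0.23 in KO aortas. In kidney it was 7.51 ± 0.27, 7.43 ± 0.23, 7.52 ± 0.07 and 7.66 ± 0.20 in the same order. The differences between groups within a tissue were thus of the size of the larger SD of the groups compared, or below it. The SD of the KO SFD kidneys, 0.07, was smaller than their difference from the KO HFD kidneys.

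Genes outside the respiratory chain moved with them. The median of 769 other protein-coding genes with transcripts under 1000 bp lay on the same side as the short members in 9 of 9 aorta libraries above the mean and 11 of 11 below it, at 0.18 to 0.46 and -0.43 to -0.01. In kidney, with 833 such genes, it did so in 9 of 9 and 10 of 11. In the 9 aorta libraries above the mean, 5704 other genes with transcripts over 3000 bp had medians of -0.21 to -0.08. Mitochondrial ribosomal proteins, mostly short transcripts too, had 74 of 74 values above 0 for KO against WT under HFD in kidney (median 0.21), and 71 of 74 below 0 in aorta. In kidney the short members had a median of 0.27 in that comparison and the longer ones 0.16, and in aorta -0.39 and -0.18. With the median level of the other short genes as a covariate, an alternative chosen after seeing the data, the medians were 0.01 with 47 of 79 above 0 in kidney and -0.06 with 22 of 79 above 0 in aorta. What sets this shared movement (RNA quality, library preparation or tissue) was not tested.

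**Figure D4:**
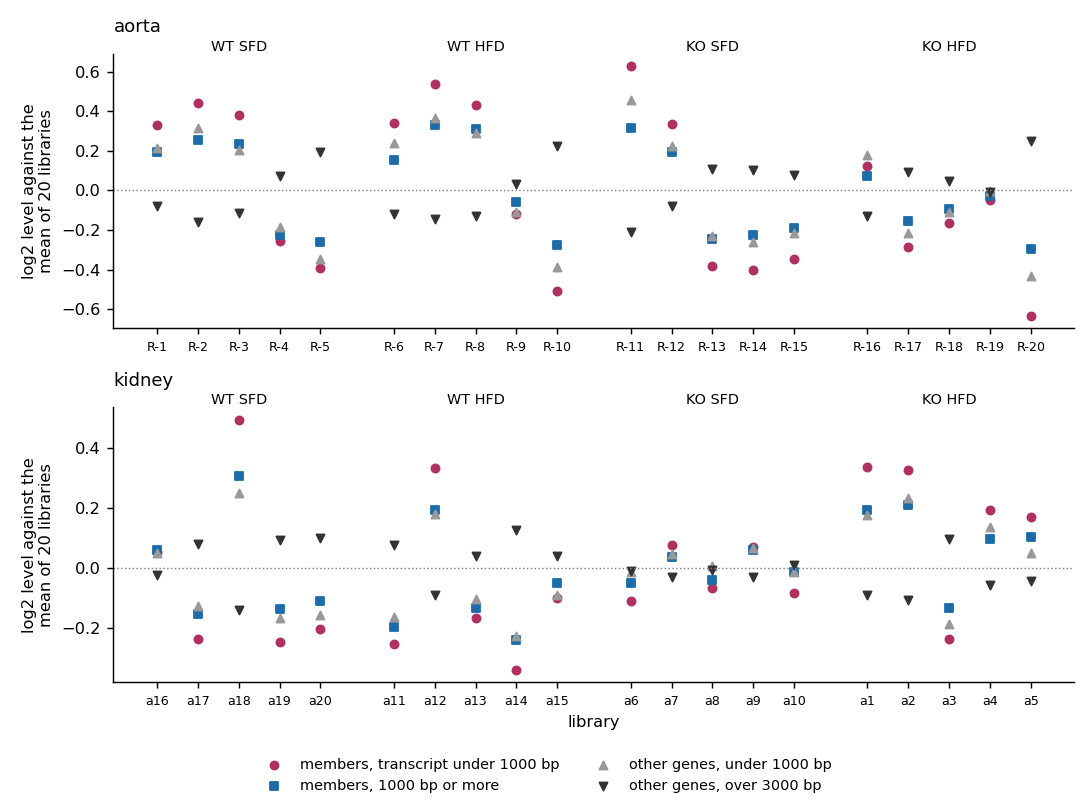
Level of each library against the mean of the 20 libraries of its tissue (y axis, log2), by group (x axis), for members with transcripts under 1000 bp, members of 1000 bp or more, and the medians of other protein-coding genes under 1000 bp and over 3000 bp. Short members span -0.63 to 0.63 in aorta and -0.34 to 0.49 in kidney, other short genes lie on the same side in all but 1 library, and libraries of 1 group lie on both sides.

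The spread between mice of a group therefore differed widely among members. The median SD of the log2 level within groups was 0.43 for short and 0.25 for longer members in aorta, and 0.26 and 0.16 in kidney. Across the 79 members, which share libraries and are not independent, Spearman's rho between transcript length and this SD was -0.62 in aorta and -0.57 in kidney. The steadiest members were long ones that encode large subunits: Sdha with an SD of 0.078 in aorta and 0.037 in kidney, Uqcrc2 with 0.096 and 0.063, and Ndufs1 with 0.108 and 0.060. The most variable in aorta were Atp5e (0.628) and Atp5k (0.627), small ATP synthase subunits, and Uqcr11 (0.589). In kidney they were Cox6a2 (0.545), Uqcr11 (0.367) and Atp5k (0.356). A given fold change was thus easier to detect for Sdha than for Atp5k.

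**Figure D5:**
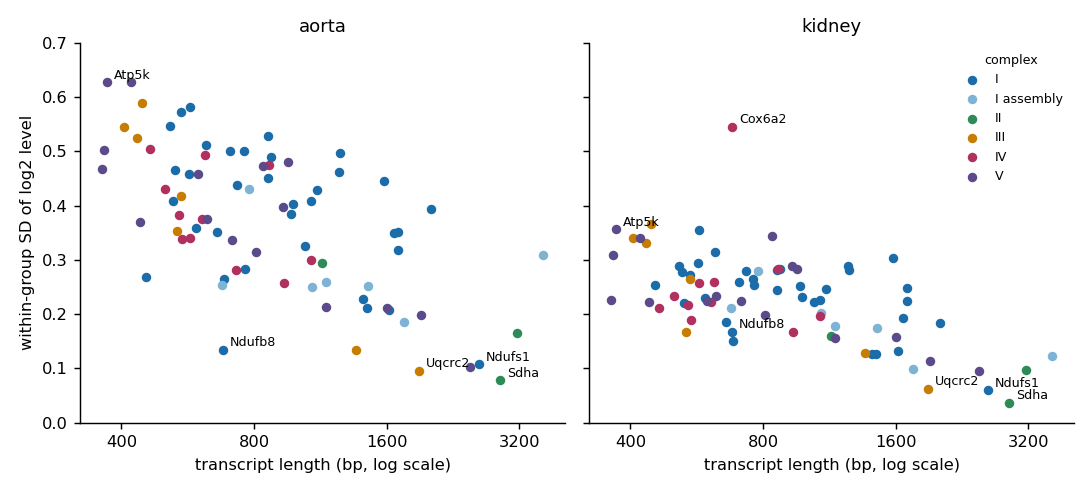
SD of the log2 level within groups (y axis) against transcript length (x axis, log scale in bp) for the 79 members of each tissue, coloured by complex. The SD falls from 0.627 for the short transcript Atp5k to 0.078 for Sdha in aorta, and in kidney Cox6a2 lies apart at 0.545.

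The diet effect was also compared between tissues in the joint fit. Of 78 members 1, Cox6b2, differed with adjusted p under 0.05, beside 6.5% of all genes. In aorta Cox6b2 had 8.07, 5.31, 6.82, 6.67 and 4.61 FPM on SFD and 7.20, 5.72, 6.12, 3.86 and 2.11 FPM on HFD in WT. In KO aortas it had 11.2, 8.10, 4.85, 2.98 and 4.0 FPM on SFD and 5.14, 3.21, 4.29, 4.05 and 1.78 FPM on HFD. The aorta groups overlapped, with an average log2 fold change of -0.55 ± 0.25 and adjusted p = 0.737, against 0.39 in kidney. The difference, 0.92 ± 0.28, had adjusted p = 0.0399. It was 0.73 with adjusted p = 0.226 without the near-identical libraries, and its adjusted p rose to at most 0.0751 without any 1 of 16 libraries: R-1, R-9, R-10, R-11, R-12, R-17, R-20, a1, a4, a6, a7, a8, a12, a17, a19 and a20.

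Other mitochondrial genes gave few diet calls. In aorta 0 genes of the 5 listed groups passed in any of the 7 comparisons (edgeR), with 0 to 5 genes of a group at an unadjusted p under 0.05. In kidney Acad9, a complex I assembly factor, fell by 0.40 on the log2 scale in WT (adjusted p = 0.0014) and by 0.37 in KO (adjusted p = 0.00263). Cox11, which brings copper to cytochrome c oxidase, fell by 0.41 in KO (adjusted p = 0.0486), and Pdss2, an enzyme of ubiquinone synthesis, fell by 0.31 in WT (adjusted p = 0.00622). Of the 39 assembly factors 2 fell on average and 0 rose, and of 74 mitochondrial ribosomal proteins 2 rose, among them Mrps25, and 3 fell, among them Mrps18b. No citric acid cycle gene of 13 and no regulator of 18 passed for diet, and none of the 5 groups had a call for genotype, with 0 to 6 genes at an unadjusted p under 0.05.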

How the data were processed

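RNA-seq of 40 libraries was analysed from 2 tables of deposited counts, 1 per tissue, that the authors made with featureCounts from reads mapped to GRCm38 (mm10); the submitters' processing notes name HISAT2 2.1.0. Counts are whole reads per gene and are not normalized. Near-identical genes can share or lose reads, and 16 members share over 10% of their 100-base stretches with another gene. A total of 14 members have over 10% of the transcript overlapped by another gene.

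Genes passing edgeR's filter (15122 in aorta, 15943 in kidney, 17514 jointly) were fitted with TMM factors and the quasi-likelihood test (edgeR 4.0.16, limma 3.58.1, R 4.3.3), with 1 coefficient per group of genotype and diet and, jointly, tissue. P-values were adjusted over all genes by Benjamini-Hochberg, with a threshold of 0.05. The biological coefficient of variation was 29.0% in aorta, 22.3% in kidney and 26.4% jointly. Since the source of aorta and kidney pairs is not stated, the joint fit treats libraries as independent. All 79 members of each tissue passed the filter. Levels are FPM, and log2 levels use a pseudocount of 1 FPM. Transcript length is that of the shortest principal transcript, and 51 members are under 1000 bp (median 795, range 362 to 3632).

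The members, gene lists and tests were chosen with earlier results of these data known. Named genes were the members called with the largest change in each direction, up to 6 each way, or, where fewer than 4 were called, the 3 with the lowest p as well, together with listed core subunits and isoform pairs, the highest and lowest member per length in each complex and the 3 members of largest spread. Other members (Ndufaf7, Ndufaf5 under HFD in KO kidneys, Ndufa11, Ndufb1.ps and those passing only an alternative) were named after their values were seen. The value of 1 listed core subunit is not reported here. Scripts were tested on simulated counts. Alternatives were DESeq2 1.42.0, other size factors, no filter, marker scores as covariates, and leaving out libraries. The edgeR p-values set a difference between groups against a spread that all groups of a fit share and that borrows from other genes. They treat each library as a separate mouse, which the near-identical pairs put in doubt.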

Additional observations from a re-analysis of the deposited data

Results flagged for a closer look

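With 5 libraries per group, 100 groups of member values were tested for a sample far from the other 4, and 7 had one, where chance gives about 1 in 20 groups. In aorta, Ndufs1 in KO SFD had 59.4 FPM in library R-11 and 69.2 to 70.3 FPM in the others. In kidney, the mean log2 level of all members in KO HFD was 7.33 in library a3 and 7.67 to 7.81 in the others, and Ndufc2 had 132 FPM there and 158 to 165 FPM in the others. Library a12 of WT HFD, 1 of the near-identical pair, had 163 FPM of Ndufc2 against 119 to 130 FPM, and 124 FPM of Ndufb6, a complex I subunit, against 92.6 to 101 FPM. Ndufb8 in KO SFD had 290 FPM (289.6) in library a7 and 237 to 249 FPM in the others, and Ndufv1 in WT SFD had 596 FPM in a18 and 401 to 450 FPM in the others.

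Cox6b2 responded to diet differently in the tissues by the test of that difference, with a log2 value of 0.925 for kidney against aorta and adjusted p = 0.0399 (edgeR), which did not hold without the near-identical libraries.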

How the results depend on the processing

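The count of members called in kidney against aorta stayed within 1.5 times under all alternatives, from 62 with total-count scaling to 69, and from 67 to 69 with 1 library left out. In aorta, counts stayed at 0 except with the skeletal muscle score as covariate, where 6 members rose under HFD in WT and 24 on average (637 and 2413 of all genes), and with the short-gene covariate, where 3 passed for KO against WT on average: Atp5k and Ndufc2 fell and Ndufa11 rose. In kidney, HFD in WT gave 2 members with DESeq2's Wald test, beside 4.56% of all genes. It gave 2 without the near-identical libraries, 1 with the proximal tubule score and 1 with the clock score as covariate. HFD in KO gave 3 with DESeq2, beside 4.53% of all genes. The short-gene covariate, added after seeing the data, gave 7 in WT, 14 in KO and 21 on average (12.9%, 12.8% and 26.4% of all genes). The member count for the diet effect between tissues went from 1 to 0 without the near-identical libraries and to 0 without the filter on low counts. The members' median turned direction in aorta for HFD in KO (0.20 with the skeletal muscle score, 0.01 with the short-gene covariate or without R-11), for HFD in WT (to -0.05 without R-7) and for KO against WT under SFD (0.01 with the brown fat or skeletal muscle score). In kidney it turned for HFD in WT (0.06 without a18) and for KO against WT under SFD (0.14 without a18). The cause of these changes was not tested. With 1 library left out, counts ranged from 0 to 2 (WT), 1 to 3 (KO) and 2 to 5 (average) for kidney HFD, from 0 to 1 for the diet effect between tissues, and were 0 in every aorta comparison and in the kidney genotype comparisons. Single members that turned direction were, with the skeletal muscle score in aorta, Cox6b2 under HFD in WT (0.083), Atp5k (0.13) and Ndufa3 (0.14) under HFD in KO and Ndufa4l2 on average (0.058), and, in kidney against aorta, Cox7a2l with total counts (-0.15) and in WT SFD alone (-0.083). No paired analysis was possible because the libraries' numbers are unique to each library and no source ties them across groups. Cox6a2 had 2.48 to 8.51 FPM in WT HFD kidneys and 2.45 to 9.78 FPM in KO HFD kidneys. The part of sequencing depth in its spread was not tested.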
